A study of Mus musculus with 2 samples.

Results

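Heat shock proteins are chaperones that keep other proteins folded. The inducible members of the family are switched on when heat shock factor 1 (HSF1) is released by misfolded protein and binds heat shock elements in their promoters, while the constitutive members are made in most cells at most times. In glioblastoma and other tumors, HSP70 and HSP90 proteins are known for holding signaling and survival proteins in an active shape. The 10 heat shock genes described here are Hspa1a, Hspa1b, Dnajb1, Hsph1, Hspb1, Hsp90aa1, Hsp90ab1, Hspa8, Hspd1 and Hspe1, matched by symbol among the 19059 genes of the count matrices, and 10 of 10 were found. They were chosen by their level, their detection and their concentration in few cells, read from these same cells across cell types and between vehicle and Xevinapant, so those values are given as a description. The members stayed in the fit across all genes, and where its calls among them are counted nothing is read from the count.

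The cells came from orthotopic brain tumors grown in C57BL/6J mice from the mGSC line, mouse glioblastoma stem cells with the genotype Trp53+/- and Nf1+/-, which both groups carried. The mice received vehicle or Xevinapant, an oral SMAC mimetic that blocks inhibitor of apoptosis proteins, by gavage for a week, and all tumors derive from the 1 line. For each group the authors deposited 4 matrices of unique molecular identifier (UMI) counts, from fixed cells read through gene probes. Each group formed its own pool with its own batch date, so treatment, pool and batch cannot be told apart, and the labels name total RNA for vehicle and polyA RNA for Xevinapant. Within a group 3 pairs of matrices differed by a median of 1.16 to 2.23 times the sampling noise per gene, and by 1.64 to 7.53 times the noise of sampling cells, and each pair was counted as 1 sample, which left 3 vehicle samples (matrices 1 and 3, matrix 2, matrix 4) and 2 Xevinapant samples (matrices 1 and 2, matrices 3 and 4). The study names as many tumors per group as there are matrices, but the labels do not say which matrix is which mouse, so the spread between samples may be partly technical.

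The matrices held 4505 to 14728 barcodes each, and 54574 of 56943 barcodes passed the filters. Cells were assigned to classes by the UMIs of marker genes, which gave 41315 tumor cells, 833 microglia, 763 macrophages, 457 fibroblasts and 226 endothelial cells, the 5 named classes with at least 10 cells in every sample. A further 1131 phagocytes that passed neither the microglia nor the macrophage subtype markers, at a median of 2098 UMIs, were not assigned to either. Tumor cells carried a median of 68.65 UMIs of oligodendrocyte lineage and stem cell markers per 10000 UMIs. The median was 1.76 in macrophages, 4.03 in microglia, 4.07 in endothelial cells and 6.2 in fibroblasts, so not at 0. The gates set this gap in part. The tumor class needed at least 25, and barcodes of another gate at 25 or more were among the 1741 set aside as mixed. So the medians do not measure how clean the classes are. The 2 pools shared 1413 full barcodes, of which 1121 had at least 50 times more UMIs in 1 pool than in the other. Without them the Hspa1 difference in tumor cells given later, 1.62 as the log2 ratio of the group means, was 1.61. Levels are given as CPM, the UMIs of a gene per 1000000 UMIs of the summed cells, and because the number of probes differs between genes, they are compared within a gene only. In summed cells, fewer expressing cells and less RNA per cell cannot be told apart, so the values per cell are given beside the sums.

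Hspa1a and Hspa1b encode the stress-inducible HSP70 proteins. In the GENCODE annotation of GRCm38, the build the files use, Hspa1a lies at chr17:34969190-34972156 and Hspa1b at chr17:34956436-34959238, both on the minus strand with 9951 bases between them. Their coding sequences share 1918 of the 1926 bases of Hspa1a, so probes could count 1 copy for the other and their sum is given beside each. Hspd1 and Hspe1, which encode the mitochondrial chaperonin HSP60 and its partner HSP10, lie head to head on chromosome 1, and their annotated genes overlap by 112 bases. Promoters are shown for 3 genes that few cells carried and for Hspe1, which 67.5% of tumor cells carried, since letters matching the heat shock element stood upstream of both kinds. RefSeq promoter windows on GRCm38.p6, from 250 bases before to 50 after the start, were found for 7 of the 10 genes and not for Hsp90aa1, Hsp90ab1 and Hspa8. The 250 bases upstream of the start follow 5′ to 3′ for 4 genes, with capitals marking each match to the heat shock element with 2 units, GAANNTTC or TTCNNGAA.

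Hspa1a (chr17:34972157-34972406, minus strand): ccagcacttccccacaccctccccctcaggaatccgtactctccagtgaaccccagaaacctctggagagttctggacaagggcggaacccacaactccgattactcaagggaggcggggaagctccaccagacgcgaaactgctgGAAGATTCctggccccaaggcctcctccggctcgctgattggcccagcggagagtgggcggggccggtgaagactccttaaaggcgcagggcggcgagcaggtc
Hspa1b (chr17:34959239-34959488, minus strand): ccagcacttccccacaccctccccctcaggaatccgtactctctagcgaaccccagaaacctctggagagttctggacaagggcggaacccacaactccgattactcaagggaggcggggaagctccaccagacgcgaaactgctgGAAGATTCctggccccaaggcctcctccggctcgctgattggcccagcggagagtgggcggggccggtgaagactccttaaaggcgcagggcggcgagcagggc
Hspb1 (chr5:135887669-135887918, plus strand): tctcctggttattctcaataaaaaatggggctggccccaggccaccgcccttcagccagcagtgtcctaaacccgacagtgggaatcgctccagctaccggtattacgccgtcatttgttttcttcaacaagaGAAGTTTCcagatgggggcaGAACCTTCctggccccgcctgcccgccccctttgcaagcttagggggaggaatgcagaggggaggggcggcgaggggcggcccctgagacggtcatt
Hspe1 (chr1:55087898-55088147, plus strand): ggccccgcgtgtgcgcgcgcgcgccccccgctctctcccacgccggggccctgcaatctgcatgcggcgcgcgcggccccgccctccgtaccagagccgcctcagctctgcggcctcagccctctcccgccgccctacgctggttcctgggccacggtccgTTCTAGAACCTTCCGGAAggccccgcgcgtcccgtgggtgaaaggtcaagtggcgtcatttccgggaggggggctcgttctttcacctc

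The stretches upstream of Hspa1a and Hspa1b shared 247 of 250 bases and the same single match. Hspb1, a small heat shock protein, had 2 matches, and the Hspe1 stretch had 3 that overlap each other in 1 run of alternating units. The same run was read from the other strand in an Hspd1 window, which shares 285 bases with the Hspe1 window. Over the whole windows 6 of the 7 genes held a 2-unit match on either strand, the exception being Dnajb1, and so did 17.0% of all 27025 genes with a window. An element of 3 units, GAANNTTCNNGAA or TTCNNGAANNTTC, was found for Hspd1, Hspe1 and Hsph1 and for 0.662% of all genes. A match of letters is a description and says nothing of whether HSF1 was bound.

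Hspa1a, Hspa1b and Hspb1 were carried by very few tumor cells, while the other 7 genes were detected in 47.7% to 91.8% of them. Of 41315 tumor cells, 4243 held any UMI of Hspa1a or Hspa1b, and 125 cells held as many of the 45748 UMIs as all the others together. The cell with most had 878. Hspb1 was detected in 377 tumor cells, with up to 138 UMIs in 1 cell, and 18 cells carried as many of its 1538 UMIs as the rest. By contrast Hspa8, the constitutive HSP70, was detected in 37791 tumor cells and Hsp90ab1, the constitutive HSP90, in 37946.

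The share of a gene's UMIs in the 1% of tumor cells with most put a value on this. For Hspa1a plus Hspa1b it was 83.8%, 67.9% and 76.5% in the vehicle samples and 66.5% and 70.5% in the Xevinapant samples, with a mean of 73.0% ± 7.13 (SD, n = 5). For the 5 genes Hsp90ab1, Hspa8, Hspd1, Hspe1 and Hsp90aa1 the means were 6.26%, 6.69%, 7.45%, 8.70% and 9.68%, and for Dnajb1 and Hsph1, an HSP40 and an HSP110 that work with HSP70, they were 12.3% and 12.5%. The same 1% by total UMIs held 4.71% ± 0.347 of all UMIs. For Hspb1 the mean was 98.0%, but under 1% of tumor cells held a UMI of it (0.913%), so its share is near 100% by construction. Cells that held any UMI of the gene held 8.93 of Hspa1a, 8.82 of Hspa1b and 4.08 of Hspb1 on average. After every cell was thinned to 3000 UMIs the share for Hspa1a plus Hspa1b was 77.4% ± 8.17 (SD, n = 5). Thinning left a UMI of the pair in 2.38% to 7.30% of tumor cells, which by itself pushes the share up. So nothing is read from the thinned share about depth.

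**Figure D1:**
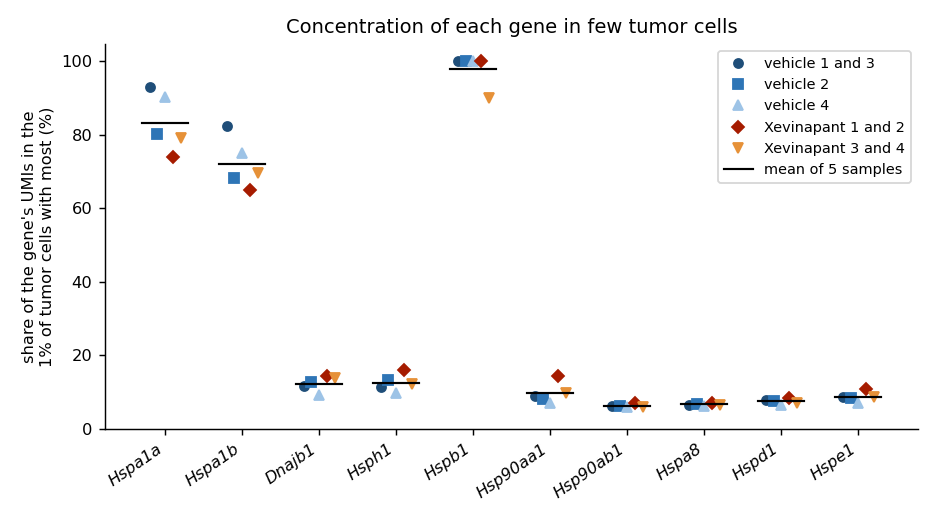
For each of the 10 genes, the share of its UMIs in the 1% of tumor cells with most, in percent, with a symbol for each of the 5 samples and a bar at their mean. Hspa1a, Hspa1b and Hspb1 lie between 65.0% and 100%, and the other 7 genes between 5.82% and 16.003%.

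Tumor cells with at least 10 UMIs of Hspa1a plus Hspa1b are called Hspa1-high below, a cut on a continuous count. There were 64, 94 and 106 such cells in the vehicle samples and 190 and 278 in the Xevinapant samples, which is 0.902%, 1.60% and 0.869% against 3.43% and 2.62% of tumor cells. Both Xevinapant samples lay above all vehicle samples, at a mean of 3.02% ± 0.576 (SD, n = 2) against 1.12% ± 0.414 (SD, n = 3). Hspa1-high cells held 73.9% to 89.4% of the UMIs of both genes in the 5 samples. A further 327 tumor cells held 5 to 9 UMIs and lie near the cut. With cells thinned to 3000 UMIs, the share with at least 3 was 0.811%, 1.63% and 0.735% in vehicle and 3.75% and 2.39% in Xevinapant samples.

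The other heat shock genes stood higher where the cell held more Hspa1 UMIs. From tumor cells with no Hspa1 UMI to those with at least 30, Hsp90aa1, the stress-inducible HSP90, went from 210 ± 33.4 to 1233 ± 330 CPM (SD, n = 5 samples). Hsph1 went from 95.1 ± 8.07 to 788 ± 223 CPM, and Dnajb1 from 52.8 ± 7.02 to 375 ± 114 CPM. The mitochondrial pair followed, Hspe1 from 120 ± 16.4 to 553 ± 114 CPM and Hspd1 from 181 ± 21.4 to 487 ± 38.8 CPM. The constitutive genes changed least in proportion, Hspa8 from 666 ± 51.2 to 1740 ± 265 CPM and Hsp90ab1 from 753 ± 61.9 to 1393 ± 113 CPM. Cells with 1 UMI were close to cells with none, at 225 ± 37.3 CPM for Hsp90aa1 and 107 ± 9.34 for Hsph1. Median total UMIs were 13568 in cells with no Hspa1 UMI, 23948 at 1, 18843 at 2 to 4, 12469 at 5 to 9, 18649 at 10 to 29 and 20720 at 30 or more. So cells with Hspa1 UMIs were deeper than those without in every bin but 5 to 9, with no steady climb. The median mitochondrial share was 0.87% at 0 and 0.651% at 30 or more.

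**Figure D2:**
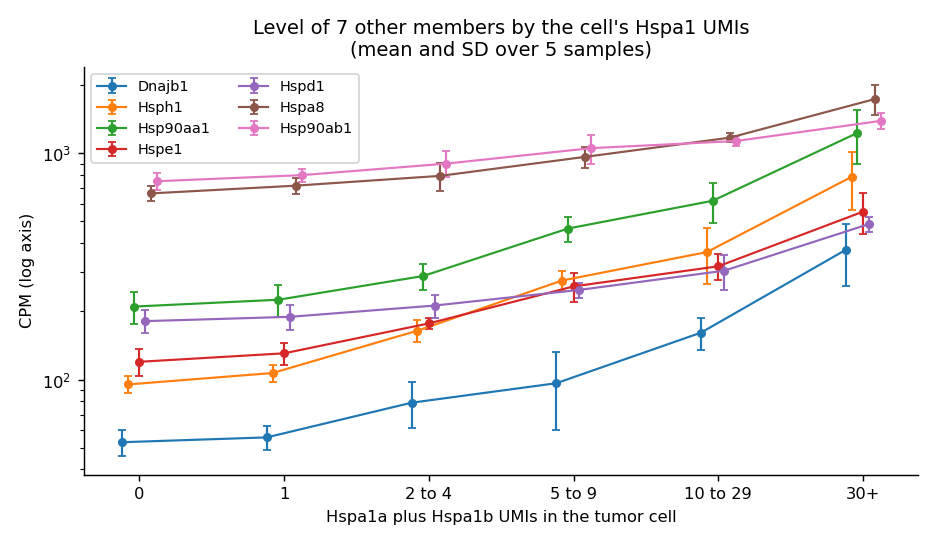
CPM on a log axis of 7 heat shock genes in tumor cells, grouped along the horizontal axis by the Hspa1a plus Hspa1b UMIs of the cell, with points at the mean and bars of 1 SD over the 5 samples. All 7 lines climb to the right, Hsph1 and Dnajb1 most steeply and Hsp90ab1 least, from 753 to 1393 CPM.

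Across all genes, 42 of the 11297 genes that passed a filter on their level in all tumor cells were at least 2-fold higher in Hspa1-high cells than in the other tumor cells in each of the 5 samples, which is 0.372%. Of the 8 heat shock genes that did not define the cells 7 passed the filter, and Hsph1, Dnajb1, Hsp90aa1 and Hspe1 met this. All 7 were higher in 5 of 5 samples, as were 15.2% of all genes, while 32.5% of all genes were lower in 5 of 5. At least 2-fold lower in each sample were 2 genes, 0.0177%, the cyclin Ccnf and Nanos3, named after their values were seen. Hspa1-high cells had been picked on the Hspa1 UMIs of the same libraries, so the counts describe those cells. The log2 difference was 2.40 ± 0.212 (SD, n = 5) for Hsph1, 2.12 ± 0.199 for Dnajb1, 2.02 ± 0.363 for Hsp90aa1 and 1.73 ± 0.313 for Hspe1, on a scale of log2(CPM + 5). Hspb1, which did not pass the filter, stood at 51.4 CPM in Hspa1-high cells and 0.675 CPM in the others.

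The other chaperone lists are read against the 15.2% of all genes that were higher and the 32.5% that were lower in every sample. Of 4 small heat shock proteins 3 were higher in all samples, Cryab (alpha B-crystallin) by 1.54 ± 0.362 and Hspb8 by 0.845 ± 0.419. Among 21 HSP70 co-chaperones and relatives 10 were higher in 5 of 5 samples and 2 lower, with Hspa4l at 1.03 ± 0.119, the HSP40 Dnaja1 at 1.001 ± 0.186 and Bag3, a nucleotide exchange factor, at 0.909 ± 0.23. Of 11 HSP90 co-chaperones 7 were higher in every sample but none 2-fold, such as Ahsa1, which activates the ATPase of HSP90, at 0.293 ± 0.03. The chaperonin TRiC and prefoldin list had 5 of 14 higher and 3 lower, the ER chaperones 6 of 12 higher and 3 lower, the mitochondrial chaperones and proteases 3 of 9 higher and 1 lower, and Hsf1 itself stood at 0.014 ± 0.111. Over all genes the median was -0.088.

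Among the genes furthest apart were immediate early genes, which are switched on within minutes of a stimulus. All 16 on the list were higher in Hspa1-high cells in 5 of 5 samples and 11 were at least 2-fold higher in each, with a median log2 difference of 2.02. Atf3 stood at 3.34 ± 0.208, from 11.8 to 168 CPM, Fos at 3.25 ± 0.409, from 137 to 1187 CPM, and Dusp1 at 2.49 ± 0.079. Immediate early genes are also known to be induced while tissue is taken apart into cells. Their part in the Hspa1-high state was not tested. Nor was the part of taking the tissue apart in the levels of the heat shock genes themselves. The median of the cycling markers was 14.3 UMIs per 10000 in tumor cells with no Hspa1 UMI and 5.2 in those with at least 30.

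Tumor cells carrying state markers differed in the same genes. How many of all genes were higher or lower in every sample was not counted for these states, so nothing is read from the number of members. In 1151 cells with MES-like markers (at least 2 of Ndrg1, Akap12 and Wwtr1) Hspa1a plus Hspa1b stood at 230 CPM against 58.6 in the other tumor cells, and Hsph1 at 178 against 108 CPM, higher in 5 of 5 samples for both. In vehicle sample 1 and 3 the log2 difference of Hsph1 was only 0.016. Dnajb1, Hsp90aa1 and Hsp90ab1 were higher in 5 of 5, Hspb1 and Hspe1 in 4, Hspa8 in 2 and Hspd1 in 1. Immediate early genes were also higher there, by 1.65 ± 0.322 on the log2 scale. In 21940 cells with cycling markers Hspa1a plus Hspa1b was lower in 5 of 5 samples, at 43.3 against 92.1 CPM. So was Hsph1, at 103 against 121 CPM. Hsp90aa1, at 247 against 205 CPM, and Hspd1, at 198 against 172 CPM, were higher in 5 of 5, as were Dnajb1, Hsp90ab1 and Hspa8. Cells with cycling markers had a median of 18100 UMIs and the others 10949. In 3308 cells with AC-like markers the 5 genes Hsp90aa1, Hsp90ab1, Hspa8, Hspd1 and Hspe1 were lower in every sample, with a log2 difference of -0.41 ± 0.157 for Hsp90ab1. Hspa1a plus Hspa1b was higher there in 4 of 5 samples, at 114 against 58.8 CPM, and the summed immediate early genes in 5 of 5. In 1050 cells with NPC-like markers Hspd1 was lower in 5 of 5 samples, with a log2 difference of -0.32 ± 0.115. Hspe1, Dnajb1 and Hspb1 were also lower in 5 of 5, and Hspa1a plus Hspa1b in 4 of 5.

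Between the treatment groups, Hspa1a, Hspa1b and Hspb1 were higher in both Xevinapant samples, Hsp90aa1 was slightly lower and the other 6 overlapped. Of all genes tested 30.6% did not overlap. The members were chosen on these values, so nothing is read from which of them differed. In tumor cells Hspa1a stood at 10.6, 11.4 and 5.45 CPM in the vehicle samples and 42.7 and 21.5 CPM in the Xevinapant samples. Hspa1b stood at 24.9, 34.1 and 15.9 against 88.5 and 57.6 CPM. Both Xevinapant samples were above all vehicle samples for both genes, and the summed level of the pair was 3.08-fold higher, 105.2 ± 36.9 CPM (SD, n = 2) against 34.1 ± 12.1 (SD, n = 3). Hspb1 followed, at 0.971, 0.937 and 1.03 against 3.56 and 3.09 CPM. The joined vehicle matrices 1 and 3 stood at 6.87 and 13.9 CPM for Hspa1a, and at 1.74 and 0.292 CPM for Hspb1 (100 and 19 UMIs), so the like Hspb1 values of the vehicle samples rest on joining. Xevinapant matrices 3 and 4 stood at 2.12 and 4.15 CPM for Hspb1. With each matrix on its own these 3 genes still did not overlap. The makeup of the tumor class also differed between the groups. Cells with MES-like markers made up 2.2%, 1.26% and 1.93% of vehicle and 4.93% and 3.89% of Xevinapant tumor cells, and cells with cycling markers 53.3%, 56.7% and 61.03% against 39.8% and 48.8%. Their part in the Hspa1 difference was not tested.

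Hsp90aa1 went the other way, with 229, 252 and 253 CPM in vehicle and 197 and 227 CPM in Xevinapant samples, which do not overlap by a narrow margin and overlapped with each matrix on its own. The other 6 genes overlapped between the groups, among them Hspa8 at 728, 694 and 608 against 684 and 757 CPM and Dnajb1 at 63.4, 53.0 and 47.2 against 60.7 and 70.7 CPM. The mitochondrial Hspd1, at 190 ± 19.4 in vehicle and 185 ± 30.4 CPM in Xevinapant samples, and Hspe1, at 133 ± 13.8 and 127 ± 12.3 CPM, differed by less than their spread. So 4 of 10 genes did not overlap, 3 of them higher and 1 lower with Xevinapant, beside 30.6% of all 14514 genes tested, and since the members were chosen on this contrast nothing is read from that. The sum of all 10, made up mostly of Hsp90ab1 and Hspa8, was 2236 ± 113 CPM in vehicle and 2278 ± 141 CPM in Xevinapant samples. The direction of that small difference changed with the samples used. By edgeR's quasi-likelihood test at an adjusted p of 0.05 none of the 10 genes was called in tumor cells, where 0% of all genes were called.

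**Figure D3:**
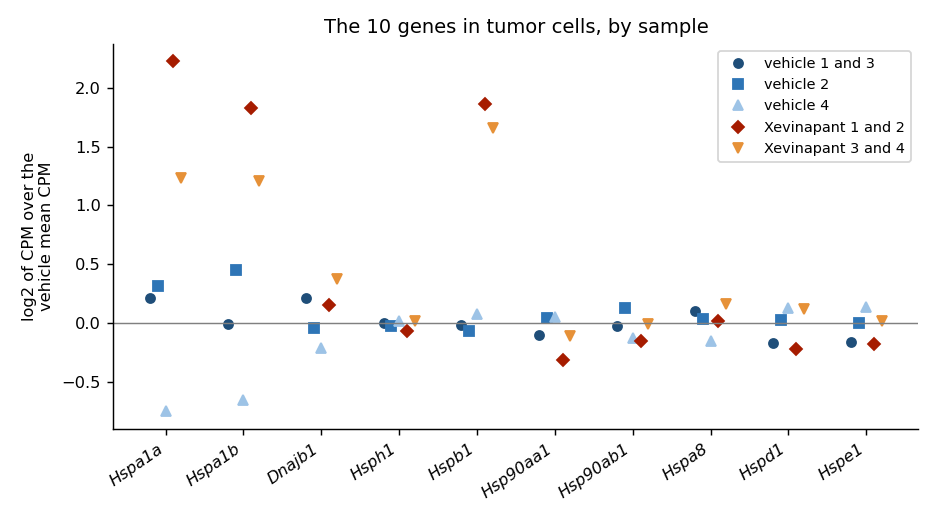
Level of each of the 10 genes in tumor cells as the log2 of the sample's CPM over the mean CPM of the vehicle samples, with a symbol per sample. Both Xevinapant samples lie above the 3 vehicle samples for Hspa1a, Hspa1b and Hspb1 and below them for Hsp90aa1.

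Detection in single cells was compared at equal depth. In tumor cells thinned to 3000 UMIs, Hspa1a or Hspa1b was seen in 3.10% ± 0.988 of vehicle cells (SD, n = 3) and 6.42% ± 1.24 of Xevinapant cells (SD, n = 2), without overlap. Without thinning the means were 8.30% and 14.0%. Of the 10 genes 6 did not overlap after thinning, beside 31.4% of all genes tested, and without thinning 3 did not, beside 20.8%. Since detection was among the values that chose the genes, nothing is read from these counts. The 3 of both counts were Hspa1a, Hspa1b and Hspb1, the last seen in 0.175% ± 0.058 of vehicle and 0.436% ± 0.046 of Xevinapant thinned cells. Hsp90aa1 was seen in 47.1% ± 2.76 and 39.8% ± 4.22 of thinned cells, Hsp90ab1 in 84.6% ± 1.29 and 81.0% ± 2.30, and Hsph1 in 25.4% ± 0.443 and 24.0% ± 1.33, all 3 without overlap in the joined samples, though Hsp90aa1 and Hsph1 overlapped by matrix. Without thinning all 3 overlapped, at 79.2% and 74.3% for Hsp90aa1, 92.3% and 90.4% for Hsp90ab1 and 62.1% and 60.1% for Hsph1. Hspa8 overlapped either way, at 79.9% and 78.6% of thinned cells. No class here is known to lack HSP70 genes, so a background of free RNA could not be set from one, and the shares with a single UMI are not read as expression. In fibroblasts, at a median of 4927 UMIs against 14179 in tumor cells, the thinned share was 4.98% ± 6.63 in vehicle samples, of which vehicle sample 2 kept 8 cells, and 4.60% ± 0.523 in Xevinapant samples.

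The Hspa1 difference was measured at most depths. Among tumor cells with 10000 to 20000 UMIs the pair stood at 37.4, 36.4 and 27.6 CPM in vehicle and 136 and 111 CPM in Xevinapant samples. Cells with 2000 to 5000 UMIs had the highest levels in both groups, 127 ± 30.5 CPM (SD, n = 3) and 739 ± 287 CPM (SD, n = 2), and cells above 50000 UMIs the lowest, 16.2 ± 8.29 and 39.8 ± 10.8 CPM. The groups overlapped in 1 of 6 depth bins, 5000 to 10000 UMIs, where vehicle sample 2 stood at 143 and the Xevinapant sample of matrices 3 and 4 at 109 CPM. Immediate early genes were also higher in both Xevinapant samples. Summed over the list they stood at 969, 823 and 881 CPM in vehicle tumor cells and 1883 and 1601 CPM in Xevinapant tumor cells. Within vehicle the order differed, since sample 2 was lowest here and highest for the Hspa1 pair. Of the 16 genes 14 had Xevinapant samples all above the vehicle samples, as had 19.1% of all genes tested, among them Fos at 98.0, 64.2 and 55.9 against 341 and 265 CPM, but none was called by edgeR (adjusted p = 0.414 for Fos). Their part in the Hspa1 difference was not tested.

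Microglia, the resident phagocytes of the brain, had a higher summed Hspa1 level than all tumor cells of the same sample, at a lower depth. Hspa1a plus Hspa1b was above the tumor cells in 5 of 5 samples, by 1.84 ± 0.504 on the log2(CPM + 1) scale, but not in 5 of 5 once the cell with most UMIs was left out. The median was 7435 UMIs in microglia and 14179 in tumor cells. In tumor cells of 5000 to 10000 UMIs the pair stood at 55.6, 143 and 35.8 CPM in vehicle and 368 and 109 CPM in Xevinapant samples. There vehicle sample 2 was above its microglia. The part of depth in this difference was not tested. The pair stood at 134, 95.7 and 121 CPM in vehicle and 532 and 274 CPM in Xevinapant microglia, and Hspb1 at 0, 3.25 and 2.08 against 11.3 and 10.7 CPM, both without overlap in the joined samples. By matrix both overlapped, the pair with vehicle matrix 1 at 268 CPM above Xevinapant matrices 2 and 3 at 200.9 and 211 CPM, and Hspb1 with vehicle matrix 2 at 3.25 above Xevinapant matrix 4 at 2.72 CPM. These sums rest on few cells. In the Xevinapant sample of matrices 1 and 2, 566 of 801 Hspa1 UMIs came from 1 of 131 microglia, and without that cell the level was 158 CPM. In vehicle sample 2, 44 of 59 came from 1 cell, and without it the level was 24.8 CPM, below the 45.5 CPM of its tumor cells. Vehicle matrix 3, which was joined with matrix 1, stood at 1.998 CPM. In thinned microglia Hspa1a or Hspa1b was seen in 3.90% ± 0.98 of vehicle and 8.82% ± 0.385 of Xevinapant cells, without overlap also by matrix. Microglia with at least 10 UMIs made up 2.42%, 1.22% and 1.82% against 5.34% and 5.07%, but by matrix vehicle matrix 1, at 4.35%, was above Xevinapant matrix 3, at 3.60%. The summed immediate early genes stood at 1312 ± 73.1 and 1659 ± 132 CPM in the same cells, also without overlap. Of the 14 immediate early genes tested there 6 lay above in both Xevinapant samples and 1, Egr1, below, at 101, 179 and 54.6 against 47.2 and 51.9 CPM, beside 11% of all genes tested above and 9.07% below, and edgeR called none of them. Of the 10 heat shock genes 3 did not overlap in the joined samples, Hspa1a, Hspa1b and Hspb1, and 0 of these by matrix, beside 20.1% of the 10457 genes tested in microglia, and nothing is read from that count. Hspa8 stood at 650 ± 40.0 and 656 ± 7.13 CPM, and Hsp90ab1 and Hspd1 were below the tumor cells in 5 of 5 samples. In the phagocytes without a subtype the pair overlapped between the groups, at 116, 146 and 479 CPM in vehicle and 434 and 712 CPM in Xevinapant samples.

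**Figure D4:**
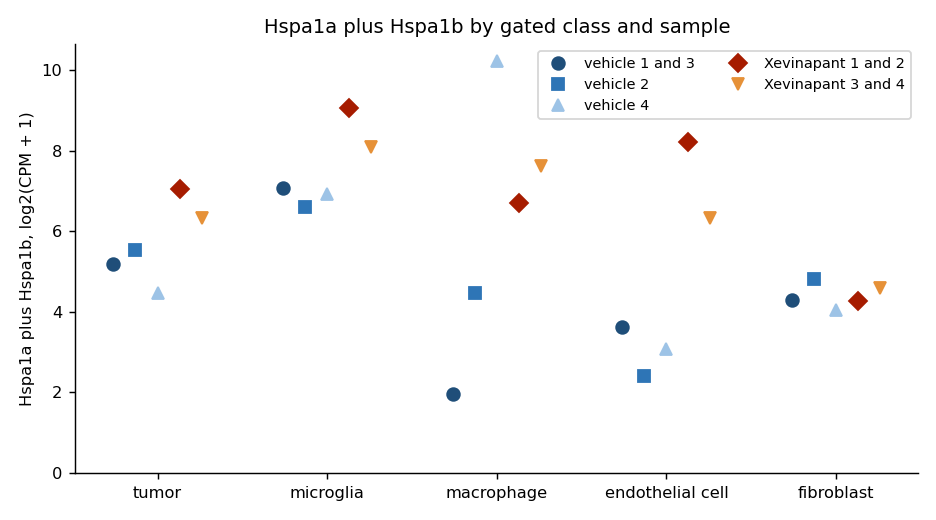
Level of Hspa1a plus Hspa1b as log2(CPM + 1) in 5 gated classes, with a symbol per sample. The Xevinapant samples lie above the vehicle samples in tumor cells, microglia and endothelial cells, the fibroblast samples lie together, and in macrophages vehicle sample 4 lies above all others.

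Macrophages showed how far 1 sample can set the level. The pair stood at 2.88, 21.2 and 1212 CPM in vehicle and 103 and 196 CPM in Xevinapant macrophages. In vehicle sample 4, which is highest, 333 of 529 UMIs came from 1 of 58 cells, and without it the level was still 472 CPM. The log2 ratio of the Xevinapant mean CPM over the vehicle mean CPM was -1.46 with vehicle sample 4 and 3.63 without it. It was -0.506 when the cell with most Hspa1 UMIs was left out of each sample. Of the 9 heat shock genes tested 3 did not overlap between the groups, beside 27.4% of the 8800 genes tested in macrophages, and all 3 overlapped with each matrix on its own. These had lower values in both Xevinapant samples, Hsp90ab1 at 421, 540 and 481 against 380 and 377 CPM, Hsp90aa1 at 124, 149 and 222 against 119 and 120 CPM, and Hspe1 at 70.6, 75.5 and 128 against 59.0 and 68.4 CPM. The summed immediate early genes overlapped, at 2398, 2053 and 4258 CPM in vehicle and 2476 and 3219 CPM in Xevinapant macrophages, highest in vehicle sample 4 as for Hspa1.

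In endothelial cells, which line blood vessels, Hspb1 was above the tumor cells in 5 of 5 samples, by 4.31 ± 0.471 on the log2(CPM + 1) scale, at 45.3, 30.4 and 52.0 CPM in vehicle and 113 and 49.2 CPM in Xevinapant samples, with overlap. Hspa1a and Hspa1b were near 0 in the vehicle samples, with 2, 1 and 2 UMIs of the pair, and had 106 and 55 UMIs in the Xevinapant samples. That is 11.3, 4.35 and 7.43 CPM against 299 and 79.5 CPM, and 3 of 48 cells carried 90.6% of the 106 UMIs. The log2 ratio of the group mean CPM was 4.62 with both Xevinapant samples, 3.37 without the sample of matrices 1 and 2 and 5.28 without the other. It was 6.29 with a stricter gate. Hsp90ab1, at 600, 652 and 616 against 531 and 551 CPM, and Hspd1, at 108, 78.2 and 100 against 70.6 and 65.1 CPM, had lower values without overlap. With each matrix on its own Hspd1 overlapped. Of the 9 members that passed the low-count filter, Hspa1a not among them, 3 did not overlap, beside 25.6% of the 6765 genes tested, and nothing is read from that count. Of these 9 members 1, Hspa1b, was among the 31 genes called by edgeR, 0.458% of the 6765 tested, and nothing is read from that count.

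In the same cells 5 of 15 immediate early genes tested were called higher with Xevinapant by edgeR's quasi-likelihood test with Benjamini-Hochberg adjustment, and none lower. Of all genes 0.458% were called. The list was chosen with earlier results of these data known, so nothing is read from the count. Treatment, pool and batch cannot be told apart here either. The sums rest on 27, 24 and 43 vehicle and 48 and 84 Xevinapant cells. Fos was higher by 2.80 ± 0.342 (log2 fold change and SE, edgeR adjusted p = 0.00192). It stood at 45.3, 13 and 37.1 CPM in vehicle and 246 and 189 CPM in Xevinapant samples. Ier3, Jun, Atf3 and Junb were higher by 1.81, 1.63, 2.48 and 1.17, with edgeR adjusted p from 0.00505 to 0.0484. Of all genes in endothelial cells edgeR called 0 without vehicle sample 4 and 7 without vehicle sample 2, against 31 with all samples, and DESeq2 called 16. Immediate early genes were summed at 1664 ± 102 and 3490 ± 530 CPM.

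Fibroblasts had lower levels than tumor cells for 9 of the 10 genes in 5 of 5 samples, the exception being Hspb1. The share of all genes lower in this way was not counted, so nothing is read from the 9. Hspa1a plus Hspa1b stood at 18.7, 27.1 and 15.7 CPM in vehicle and 18.5 and 23.3 CPM in Xevinapant samples, 1.02-fold apart, while the summed immediate early genes went from 976 ± 224 to 1694 ± 357 CPM without overlap. Hsp90ab1, Hspa8, Hspd1 and Hspe1 were below the tumor cells in 5 of 5 samples, with mean log2 differences of -1.37, -1.07, -1.49 and -1.25. Hspb1 was above them in 4 of 5, by 1.98 ± 1.88, and stood at 8.04, 0 and 36.5 CPM in vehicle and 28.2 and 13.2 CPM in Xevinapant fibroblasts, with overlap. It was detected in 0% to 17.3% of fibroblasts and in 11.9% to 20.8% of endothelial cells without thinning, so the 2 classes overlapped in detection. Hspe1, at 58.9, 63.2 and 69.6 against 42.7 and 42.7 CPM, and Hspa8, at 340, 334 and 334 against 328 and 313 CPM, had lower values with Xevinapant without overlap. These were 2 of the 9 members that passed the low-count filter in fibroblasts, beside 20.9% of the 8969 genes that did, so nothing is read from the count, and Hspa8 overlapped with each matrix on its own.

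The main fits called no gene in the rest of the chaperone network, and few or no genes at all. In tumor cells edgeR called 0 of 75 genes of 7 chaperone lists and 0 of all 14514 genes tested, so nothing is read from that. DESeq2 called 0 of the 75 and 257 of all genes. By edgeR 6 of the 75 had an unadjusted p under 0.05. The share of all genes under that p was not counted, so nothing is read from these 6. They were Cct5, Cct7, Cct8, Dnaja1, Ptges3 and Trap1, chosen for naming after their values were seen. All had lower values with Xevinapant, such as Cct8, a subunit of the TRiC chaperonin, at 138, 133 and 143 against 87.6 and 123 CPM (log2 fold change -0.44, SE 0.15, edgeR adjusted p = 0.414). The median log2 fold change was -0.10 over the 75 and 0.006 over all genes. By list it was -0.25 for TRiC and prefoldin, -0.19 for mitochondrial chaperones and proteases, -0.15 for ER chaperones, -0.12 for small heat shock proteins, -0.04 for HSP90 co-chaperones, -0.01 for HSP70 co-chaperones and 0.14 for the HSF family.

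In microglia edgeR called 0 of 72 chaperone genes, with 3 at an unadjusted p under 0.05, and in macrophages 0 of 66, with 1. DESeq2 called 0 of these in both, beside 6 of all genes in microglia and 60 in macrophages. Of all genes edgeR called 0% in each class, including 0 of the 10 and 9 members tested. In endothelial cells 0 of 61 were called by either tool, beside 31 of all 6765 genes by edgeR and 16 by DESeq2. By edgeR 12 of the 61 had an unadjusted p under 0.05. The median log2 fold change was -0.21 over the 61, against -0.013 over all genes. The share of all genes under the unadjusted cut was not counted in any class, so nothing is read from the 3, 1 and 12.

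Genes other than members with the most similar pattern to each were sought over the 25 sums of 5 classes in 5 samples. Hsp90ab1 was most like Hnrnpa1 (r = 0.952), Med29 and Mlf2, Hspd1 like Ssrp1 (r = 0.951), Stard7 and Ncapd2, Hsp90aa1 like Pgls (r = 0.928), Sf3b4 and Hipk2, and Hspa8 like Glud1 (r = 0.917), Myo18a and Cwc15. Hspe1 was nearest to Hax1 (r = 0.866), Dnttip2 and Nars, Hsph1 to Cdca7 (r = 0.847), Rae1 and Utp6, and Hspb1 to Pdlim7 (r = 0.849), Slc44a2 and Myadm. Lowest were Hspa1a with Vrk3 (r = 0.788), Lpin2 and Brox, Hspa1b with Preb (r = 0.758) and Vrk3, and Dnajb1 with Gipc1 (r = 0.781), Usp4 and Togaram1. The points share libraries and the classes differ in depth, so these correlations are descriptions. Between members, Hspb1 and Hspe1 were least alike (r = -0.517) and Hsp90ab1 and Hspa8 most (r = 0.827).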

How the data were processed

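Single cells from vehicle and Xevinapant tumors were profiled with a probe-based 10x Genomics kit. The authors mapped reads to mm10 and counted UMIs with Cell Ranger, whose version differs between the labels and the file headers, and deposited 8 matrices of raw UMI counts without normalization. Vehicle also appears in the names of the Xevinapant matrices, whose group was taken from the sample they were deposited under. The 10 members and the gene lists were chosen with earlier results of these data known.

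Barcodes were kept at 200 genes or more, at most 10% mitochondrial UMIs and a complexity of at least 0.8. Classes were gated on marker UMIs per 10000 with cuts set after seeing the marker values, and 3 markers that tumor cells also held were left out. Barcodes that passed 2 gates, or another gate at 25 tumor marker UMIs or more per 10000, were set aside as mixed, which was the treatment of doublets. The study's doublet callers were not used here.

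Alike matrices were joined. The planned limit on the median difference between a pair, 1.5 times the sampling noise, was met by vehicle matrices 1 and 3 (1.16), while Xevinapant 1 and 2 (2.19) and 3 and 4 (2.23) exceeded it and were joined under a limit of 3 set after seeing the values. Other pairs within a group stood at 4.69 to 8.17.

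Counts were summed per class and sample and fitted with edgeR 4.0.16 (TMM, filterByExpr, quasi-likelihood test, Benjamini-Hochberg at 0.05) under R 4.3.3. Members stayed in that fit, but no p-value of theirs is reported. That test gives no SE, so the SE printed is the absolute log2 fold change over the square root of its F statistic. Thinning drew 3000 UMIs per cell without replacement, leaving out shallower cells, in 1 draw for the members and another over all genes of tumor cells for the share of all genes. The comparison of Hspa1-high cells kept genes with at least 50 UMIs expected there at their rate over all tumor cells, a filter set after seeing the data. Summed depth per sample was 99693030 to 234023577 UMIs in tumor cells and 176571 to 691621 in endothelial cells. Named genes were all members, the called chaperones (at most 3 up and 3 down per class) and the 3 genes most like each member, above a mean log2 CPM of 5. For Hspa1b 1 of these is not reported here. Genes named within Hspa1-high cells and among the immediate early genes were picked after their values were seen. P-values measure only the spread between these samples. DESeq2 1.42.0, other normalization, filters, gates, joining and left-out samples were alternatives.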

Additional observations from a re-analysis of the deposited data

How the results depend on the processing

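No paired analysis was made. The labels give 1 sample per group, and nothing in them says that matrices of the same number in both groups belong together. Each difference in this section is the log2 ratio of the Xevinapant mean over the vehicle mean. For Hspa1a plus Hspa1b in tumor cells it was 1.62 and ran from 1.18 to 1.94 over its 12 alternatives. The share of their UMIs in the 1% of tumor cells with most ran from 70.4% to 77.4% over its 11. In microglia the Hspa1 difference, 1.79, ran from 1.23 to 2.19 with 1 sample left out. In endothelial cells, at 4.62, it ran from 3.37 to 5.28 with 1 sample left out and was 6.29 with a stricter gate. In macrophages, at -1.46, it ran from -2.04 to 3.63, the latter without vehicle sample 4, and was -0.506 without the top cell of each sample. The alternatives for the Hspa1 difference were chosen after seeing the data.

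The summed level of the 10 genes had no stable direction. The sum mostly follows Hsp90ab1 and Hspa8, with 612792 and 550059 UMIs in tumor cells against 45748 of Hspa1a plus Hspa1b. In tumor cells it was 0.026, became 0.147 as a mean over cells and -0.031 with a stricter gate, and ran from -0.038 to 0.088 with 1 sample left out, below 0 without vehicle sample 4 (-0.01) or without Xevinapant 3 and 4. In microglia it was 0.205 and became -0.016 without the filters on mitochondrial share and complexity. In macrophages it was -0.376, became 0.232 as a mean over cells, and ran from -0.61 to 0.091, the latter without vehicle sample 4. In endothelial cells it was 0.111, became 0.419 with a stricter gate, and ran from -0.13 without Xevinapant 1 and 2 to 0.316 without Xevinapant 3 and 4. The causes were not tested.

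Called chaperones went from 0 to 2 in tumor cells with each matrix counted as 1 sample, and in endothelial cells from 0 to 2 without the low-count filter and to between 0 and 1 with 1 sample left out. Of all genes in tumor cells edgeR called 0, DESeq2 257, edgeR with each matrix as 1 sample 638 and with only the planned pair joined 33. Leaving out barcodes that both pools hold, and joining only the planned pair, were chosen after seeing the data and changed no direction of the results named here.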
